A study of Mus musculus with 8 samples.

Results

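The kinase TAK1, its TAB partners, the IKK kinases and the kinase NLK were examined in mouse liver as a set of 10 genes: Map3k7, Tab1, Tab2, Tab3, Chuk, Ikbkb, Ikbkg, Tbk1, Ikbke and Nlk. They were found by symbol, with Tab1, Tab2 and Tab3 listed under older synonyms, and make up 10 of the 19560 genes and 154 of the 223771 probe sets measured. RNA from the livers of 8 male mice aged 6 weeks had been hybridised to Affymetrix mouse gene arrays, 1 array per mouse. In 4 mice TAK1 and caspase 8 had both been deleted in liver parenchymal cells (LPC), a group called Tak1/Casp8 here. The other 4 mice carried the same LPC deletion of TAK1 together with a Rip3 (gene Ripk3) knockout, written Rip3-/- in the labels, and are called Tak1/Rip3. All 8 livers had therefore lost TAK1 in LPC, and no TAK1-intact mice were part of the comparison. The stated aim of the comparison was to find genes that the apoptotic and the necrotic pathway regulate differently. The Cre line behind the LPC deletions, the deleted exons and the place of each probe set relative to them are not stated in the labels. Liver cells other than LPC keep Map3k7, and in the Tak1/Casp8 mice also Casp8. The labels name LPC for the TAK1 and caspase 8 deletions but no cell type for Rip3-/-. The genotypes may therefore also differ in cells other than LPC.

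TAK1, the product of Map3k7, is a MAP kinase kinase kinase activated below the TNF, interleukin-1 and Toll-like receptors. TAB2 and TAB3 tether it to ubiquitin chains and TAB1 helps to switch it on, after which it phosphorylates IKKβ and the kinases above JNK and p38. The IKK complex marks IκB proteins for destruction and so frees NF-κB, which in hepatocytes drives survival genes that hold caspase 8 and RIPK1 in check.

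Both other targeted genes were lowest where the labels place their loss. Casp8 averaged 9.97 ± 0.13 on the log2 scale in Tak1/Casp8 livers and 11.27 ± 0.13 in Tak1/Rip3 livers (SD, n = 4 each), 2.47-fold lower (limma adjusted p = 0.000123). Ripk3 averaged 7.90 ± 0.09 in Tak1/Casp8 livers and 6.92 ± 0.38 in Tak1/Rip3 livers (limma adjusted p = 0.00782), but with its brightest probe set it differed by -0.036. Between arrays, gene values correlated at 0.975 to 0.993. Of the hepatocyte markers listed, 7 of 8 were measured, and their mean level lay between 13.21 and 13.39 in Tak1/Casp8 livers and between 13.27 and 13.38 in Tak1/Rip3 livers. In whole liver, fewer cells of a type and less RNA per cell cannot be told apart. The number of arrays limits the precision of every value. The sample titles carry leading numbers of unstated meaning that fall in separate blocks by genotype, so anything that follows those numbers cannot be told apart from the genotype. No label gives a litter, cage or scan, and p-values measure the spread between these animals only.

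None of the 10 genes differed between the genotypes when each gene was the median over its probe sets. In limma 0 of 10 had an adjusted p under 0.05, against a background of 6.69% of the 19560 genes (2.64% higher and 4.05% lower in Tak1/Casp8 livers). At an unadjusted p under 0.05 the count was also 0 of 10, against 21.1% of all genes. With variances unmoderated and separate for each genotype 0 passed as well, but only 115 of all 19560 genes did. That 0 therefore adds little. In no member did the 4 values of one group lie beyond the 4 of the other, which was so in 14.6% of all genes (6.33% with Tak1/Casp8 higher and 8.3% with it lower). The log2 differences (Tak1/Casp8 minus Tak1/Rip3) ran from -0.27 for Tab1 to 0.19 for Ikbke, with a median of -0.04 against 0.01 over all genes. Their median size was 0.08, against 0.14 over all genes. Each of the 10 intervals (95%, unadjusted) held 0, and the farthest bound was that of Tab1, which allowed a difference of up to 1.53-fold.

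**Figure D1:**
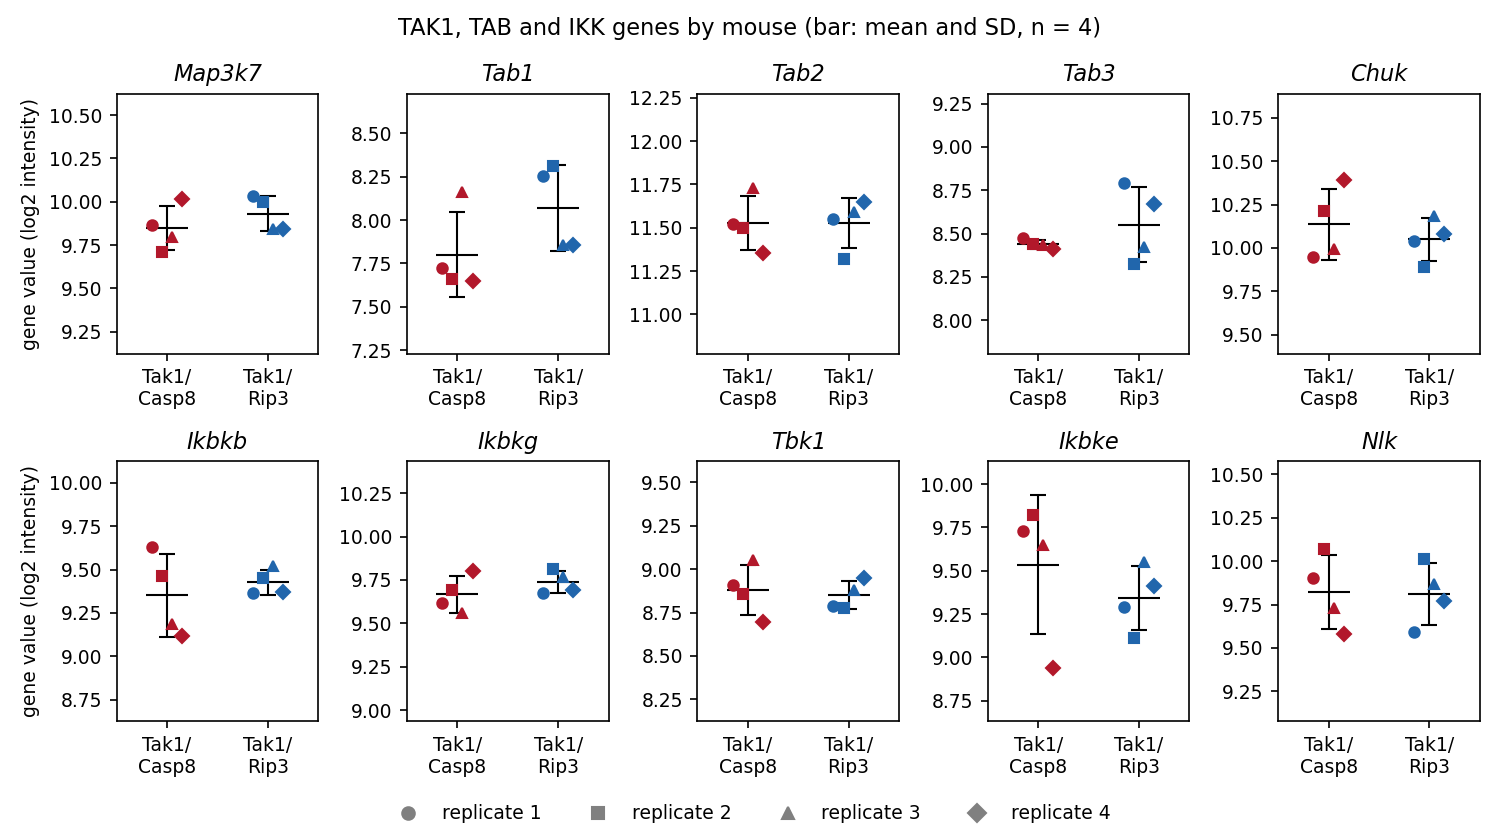
Gene values (log2 intensity, y axis) of the 10 members in the 4 Tak1/Casp8 livers (red, left) and the 4 Tak1/Rip3 livers (blue, right). Symbols mark the replicate, and bars give the mean and SD; every panel spans the same height, and the groups overlap in all 10.

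Map3k7, the gene deleted in LPC of all 8 mice, had nearly the same level in both genotypes. Its gene values were 9.87, 9.71, 9.80 and 10.02 in Tak1/Casp8 livers, against 10.04, 10.00, 9.84 and 9.84 in Tak1/Rip3 livers. Replicates 1 and 4 of Tak1/Casp8 lay inside the Tak1/Rip3 range and replicates 2 and 3 below it. The difference was -0.08 ± 0.10 (SE, limma adjusted p = 0.695), with a 95% interval from -0.30 to 0.14. That interval compares the genotypes only and does not measure how complete the deletion was.

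The 11 probe sets of Map3k7, each about the size of an exon, were then taken in the order of their IDs. The first had a mean of 9.50 ± 0.13 in Tak1/Casp8 livers and 9.58 ± 0.21 in Tak1/Rip3 livers. The second had 10.75 ± 0.07 in Tak1/Casp8 livers and 10.85 ± 0.22 in Tak1/Rip3 livers. The third had 10.05 ± 0.19 in Tak1/Casp8 livers and 10.18 ± 0.14 in Tak1/Rip3 livers. These first probe sets were a little lower in Tak1/Casp8 livers, by no more than the spread between mice. In probe set 4 the means were 9.25 ± 0.16 in Tak1/Casp8 livers and 9.05 ± 0.36 in Tak1/Rip3 livers, and in probe set 5 they were 8.62 ± 0.24 and 8.42 ± 0.35 for the same genotypes. Both leaned the other way, with a Tak1/Rip3 SD larger than the difference. Probe sets 6, 7 and 8 differed by 0.05, -0.02 and 0.09. Probe set 10 had 11.64 ± 0.06 in Tak1/Casp8 livers and 11.55 ± 0.18 in Tak1/Rip3 livers, and probe set 11 differed by -0.06. None of these 10 probe sets reached an unadjusted p under 0.05, and their limma adjusted p lay between 0.654 and 0.950.

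Probe set 9 of Map3k7 was the one that stood apart. It measured 6.82, 7.45, 7.34 and 7.57 in Tak1/Casp8 livers, against 5.82, 6.99, 6.95 and 6.27 in Tak1/Rip3 livers. Replicate 1 of Tak1/Casp8 lay below the upper Tak1/Rip3 arrays, so the groups overlapped. The difference was 0.79 ± 0.29 (SE), with an unadjusted p of 0.0246 and a limma adjusted p of 0.240 over all probe sets. Its Tak1/Rip3 mean of 6.51 lay at the lower quartile of the probe sets on those arrays (6.51 to 6.52), where RMA compresses differences. Over all probe sets 15.5% reached an unadjusted p under 0.05, and 1.63% passed after adjustment (0.542% higher and 1.09% lower in Tak1/Casp8 livers). Of the 11 here 1 and 0 did so. With variances unmoderated and separate for each genotype 0 of the 11 passed, but only 118 of all 223771 probe sets did.

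**Figure D2:**
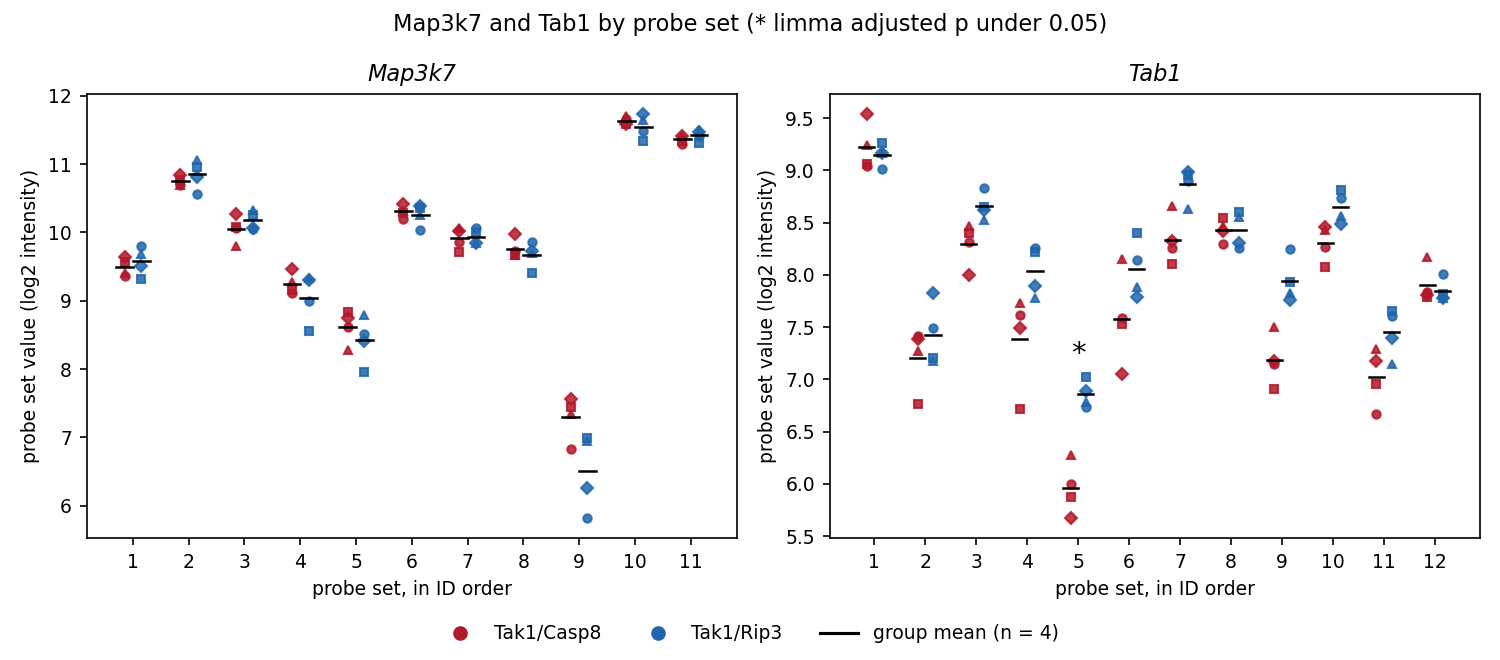
Probe set values (log2 intensity, y axis) of Map3k7 (left) and Tab1 (right) in ID order (x axis) for 4 Tak1/Casp8 livers (red) and 4 Tak1/Rip3 livers (blue), with the group means as black lines and symbols by replicate. Map3k7 means lie close together except at probe set 9, and Tab1 probe set 5 (starred) is the one that passed the test.

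Tab1, the activating partner that binds the TAK1 kinase domain, gave the only call among the probe sets. Probe set 5 of its 12 measured 6.00, 5.88, 6.28 and 5.67 in Tak1/Casp8 livers, against 6.73, 7.02, 6.79 and 6.89 in Tak1/Rip3 livers. All Tak1/Casp8 arrays lay below all Tak1/Rip3 arrays. It fell by 0.90 ± 0.15 (SE) on the log2 scale, 1.87-fold lower in Tak1/Casp8 livers (limma adjusted p = 0.0295). Its mean in Tak1/Casp8 livers, 5.96, was below the arrays' lower quartile (6.47 to 6.49), so the fold is uncertain. The call was lost without any 1 of 6 arrays, namely Tak1/Casp8 replicate 1 or 2 or any Tak1/Rip3 replicate (limma adjusted p = 0.0549 to 0.0934). With unmoderated variances the adjusted p was 0.154.

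Most of the other Tab1 probe sets leaned the same way without passing. Of the 12, 9 had a lower mean in Tak1/Casp8 livers, 7 reached an unadjusted p under 0.05, and in 5 the groups did not overlap. Over all probe sets the groups did not overlap in 11.4%, with Tak1/Casp8 lower in 6.53% and higher in 4.89%. Probe set 9 measured 7.14, 6.91, 7.50 and 7.18 in Tak1/Casp8 livers, against 8.25, 7.93, 7.82 and 7.76 in Tak1/Rip3 livers. The groups were clear of each other, and the difference of -0.76 ± 0.17 had a limma adjusted p of 0.0656. Probe sets 3, 4, 7, 10 and 11 differed by -0.36, -0.65, -0.53, -0.34 and -0.43, with limma adjusted p between 0.140 and 0.291. The 12 probe sets read the same RNA from the same 8 mice and are not independent.

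As a gene, Tab1 depended on how its probe sets were combined. The median over them was 7.73, 7.66, 8.16 and 7.65 in Tak1/Casp8 livers, against 8.26, 8.31, 7.86 and 7.86 in Tak1/Rip3 livers. Replicate 3 of Tak1/Casp8 was high and lay inside the Tak1/Rip3 range, and the difference of -0.27 ± 0.15 (SE) did not pass (limma adjusted p = 0.356). The mean over the probe sets was 7.70, 7.56, 7.97 and 7.71 in Tak1/Casp8 livers, against 8.19, 8.21, 7.98 and 8.07 in Tak1/Rip3 livers. These groups did not overlap, though replicate 3 of each lay almost level. That difference was -0.38 ± 0.10 (SE) and passed (limma adjusted p = 0.0380), in a setting where 9.22% of all genes passed and 5.57% with lower values. With the brightest probe set alone Tab1 differed by 0.07 (limma adjusted p = 0.811). Markers of dividing cells were also lower in Tak1/Casp8 livers, all 6 measured of 7 listed, with a mean level of 7.50 to 8.88 there and 9.65 to 10.44 in Tak1/Rip3 livers. Their part in the Tab1 values was not tested.

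The adaptors Tab2 and Tab3, which carry TAK1 to ubiquitin chains, did not differ at gene level. Tab2 measured 11.52, 11.50, 11.73 and 11.35 in Tak1/Casp8 livers, against 11.55, 11.32, 11.59 and 11.65 in Tak1/Rip3 livers. The arrays of both genotypes were mixed, and the 95% interval of the difference was -0.25 to 0.25. Tab3 measured 8.47, 8.44, 8.44 and 8.41 in Tak1/Casp8 livers, against 8.79, 8.32, 8.42 and 8.67 in Tak1/Rip3 livers. The Tak1/Casp8 mice were close together and the Tak1/Rip3 mice lay on both sides of them, with a difference of -0.11 ± 0.11 (SE). Probe set 6 of Tab3 measured 7.37, 7.32, 7.33 and 7.81 in Tak1/Casp8 livers, against 8.13, 7.96, 7.87 and 7.87 in Tak1/Rip3 livers. Here the groups did not overlap, and the difference of -0.50 ± 0.14 had a limma adjusted p of 0.139.

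**Figure D3:**
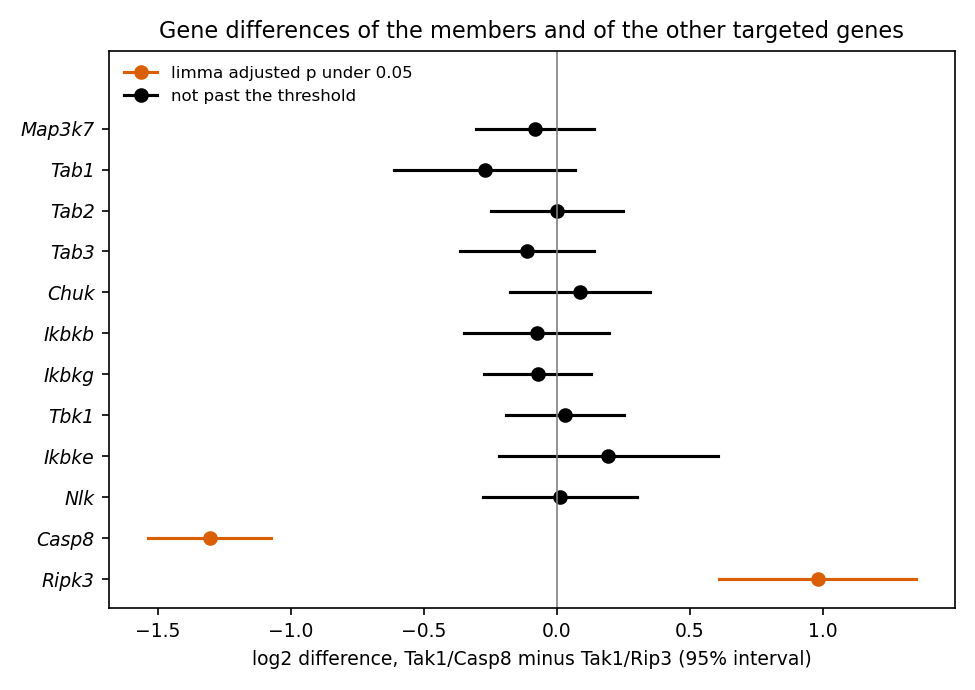
Log2 differences (x axis, Tak1/Casp8 minus Tak1/Rip3) with 95% intervals for the 10 members and, at the bottom, the targeted genes Casp8 and Ripk3. The 10 member intervals all cross 0 and stay within -0.61 and 0.61, while Casp8 and Ripk3 lie clear of it.

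The 3 subunits of the canonical IKK complex did not differ. Chuk, which encodes IKKα, measured 9.95, 10.21, 10.00 and 10.39 in Tak1/Casp8 livers, against 10.04, 9.89, 10.19 and 10.08 in Tak1/Rip3 livers. The values of the genotypes were mixed (0.09 ± 0.12 SE, limma adjusted p = 0.733). Ikbkg encodes NEMO, the subunit that binds ubiquitin chains, and measured 9.62, 9.69, 9.56 and 9.80 in Tak1/Casp8 livers, against 9.67, 9.81, 9.77 and 9.69 in Tak1/Rip3 livers. Its spread between mice was among the smallest of the members (within-group SD 0.09), and its interval reached from -0.27 to 0.13. None of the 19 probe sets of Chuk or the 16 of Ikbkg reached an unadjusted p under 0.05. In probe set 10 of Ikbkg the groups did not overlap, with a difference of -0.24 (limma adjusted p = 0.353).

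Ikbkb, which encodes IKKβ, the subunit that phosphorylates IκB, was uneven within the Tak1/Casp8 group. Its gene values were 9.63, 9.46, 9.19 and 9.12 in Tak1/Casp8 livers, against 9.37, 9.45, 9.52 and 9.37 in Tak1/Rip3 livers. The Tak1/Casp8 mice lay on both sides of the Tak1/Rip3 mice (-0.08 ± 0.12 SE, limma adjusted p = 0.785). In 3 of its 25 probe sets Tak1/Casp8 replicate 4 lay far below the other arrays. Probe set 19, for example, measured 9.84, 10.08, 9.89 and 6.71 in Tak1/Casp8 livers, against 9.84, 9.57, 10.14 and 9.84 in Tak1/Rip3 livers. Probe sets 10 and 14 read 6.48 and 6.69 on that array, with 8.63 or more on the other 3 arrays of the group. That array also had the lowest Ikbkb gene value of its group, and without it the difference turned from -0.08 to 0.0019. It was not low throughout, being the lowest array of its group in 6 of the 25 probe sets and the highest in 6.

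The related kinases TBK1 and IKKε, which act on IRF3 and also restrain RIPK1, and the kinase NLK showed no difference at gene level either. Tbk1 measured 8.91, 8.86, 9.05 and 8.70 in Tak1/Casp8 livers, against 8.79, 8.78, 8.88 and 8.95 in Tak1/Rip3 livers. The groups overlapped throughout, and the difference of 0.03 ± 0.10 (SE) was small beside the spread. Of its 23 probe sets, 2 reached an unadjusted p under 0.05 in opposite directions, probe set 1 with -0.88 and probe set 5 with 0.54 (limma adjusted p = 0.257 and 0.215). Nlk, which phosphorylates TCF and LEF factors of the Wnt pathway, measured 9.90, 10.07, 9.73 and 9.58 in Tak1/Casp8 livers, against 9.59, 10.01, 9.87 and 9.77 in Tak1/Rip3 livers. The mice of both genotypes covered the same range (0.01 ± 0.13 SE). Of the 9 Nlk probe sets, however, 7 had a lower mean in Tak1/Casp8 livers, with a median difference of -0.14 over the probe sets. Of these 9, 0 reached an unadjusted p under 0.05 in limma. Probe set 9 of Nlk measured 8.68, 8.54, 8.39 and 7.27 in Tak1/Casp8 livers, against 9.03, 8.83, 8.70 and 8.87 in Tak1/Rip3 livers. The groups just did not overlap, and the difference of -0.64 ± 0.29 (SE, limma adjusted p = 0.341) was -0.32 without Tak1/Casp8 replicate 4.

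Ikbke, the inducible member of the IKK family, varied most between mice of the same genotype. It measured 9.73, 9.82, 9.65 and 8.94 in Tak1/Casp8 livers, against 9.29, 9.11, 9.55 and 9.41 in Tak1/Rip3 livers. Replicates 1 to 3 of Tak1/Casp8 lay above all Tak1/Rip3 mice and replicate 4 below them. The difference was 0.19 ± 0.19 (SE, limma adjusted p = 0.606), and without Tak1/Casp8 replicate 4 it was 0.39 (limma adjusted p = 0.0882). Of its 25 probe sets 23 had a higher mean in Tak1/Casp8 livers, none with an unadjusted p under 0.05. Replicate 4 was the lowest Tak1/Casp8 array in 21 of the 25. In probe set 1 it read 7.08, while the other Tak1/Casp8 arrays read 10.36, 10.34 and 10.38. The within-group SD of Ikbke, 0.31, exceeded that of 88.8% of all genes, against 0.12 for Map3k7, which exceeded 19.2%.

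The sequences before the start sites of these last genes are shown because they belong to the member with the widest spread between mice and to the targeted gene. Both are the 250 bases before the RefSeq start, 5′ to 3′ on the gene's own strand, with each CpG in capitals (build GRCm38.p6).
Ikbke, chr1:131279564-131279813, minus strand: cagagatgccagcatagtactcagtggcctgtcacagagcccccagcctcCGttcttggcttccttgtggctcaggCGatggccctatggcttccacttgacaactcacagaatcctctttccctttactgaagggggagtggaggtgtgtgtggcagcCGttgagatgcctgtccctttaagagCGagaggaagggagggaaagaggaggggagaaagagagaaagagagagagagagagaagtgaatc
Map3k7, chr4:31963857-31964106, plus strand: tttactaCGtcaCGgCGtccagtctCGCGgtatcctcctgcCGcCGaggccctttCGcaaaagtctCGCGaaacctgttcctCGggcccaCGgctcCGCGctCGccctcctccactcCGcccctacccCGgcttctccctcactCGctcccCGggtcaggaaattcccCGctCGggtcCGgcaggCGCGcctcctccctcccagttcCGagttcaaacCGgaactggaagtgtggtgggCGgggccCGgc
Ikbke held 4 CpG dinucleotides and Map3k7 28, and 32851 such windows over all genes had a median of 6. Of the 8 members with a listed start, 6 had a single one. Besides these 2, Tab3 held 24 CpG, Chuk 13, Tbk1 31 and Nlk 20. The CpG count is a description of the sequence, and nothing in these arrays measured promoter use.

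**Figure D4:**
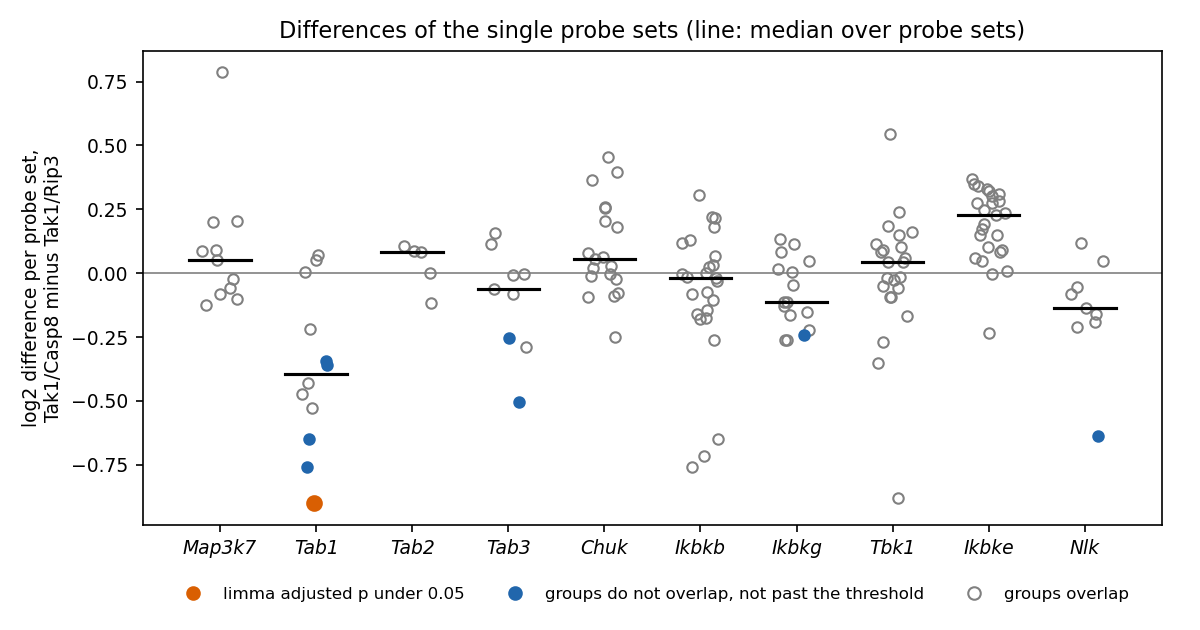
Log2 differences (y axis, Tak1/Casp8 minus Tak1/Rip3) of all 154 member probe sets, with the median over probe sets as a line. Tab1 holds 5 of the 9 probe sets whose groups do not overlap (filled) and the only call (orange), while 23 of 25 Ikbke probe sets lie above 0. Probe sets of the same gene are not independent.

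Over all 154 member probe sets 1 passed (0.649%), against the background of 1.63%. An unadjusted p under 0.05 was reached by 11 (7.14%), against 15.5% of all probe sets. The groups did not overlap in 9 (5.84%), against 11.4%. All 9 were lower in Tak1/Casp8 livers, and besides the 5 of Tab1 they belonged to Tab3 (2), Ikbkg (1) and Nlk (1).

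Among genes whose pattern over the 8 arrays was most like that of Map3k7, Mbnl3, Slc39a3 and Oog4 came first of 16549 ranked. Their Pearson r of 0.951, 0.950 and 0.950 are the highest of that many and are given as a description only, since all points share the same 8 arrays. None of these genes differed between the genotypes (limma adjusted p = 0.592, 0.525 and 0.821). Oog4 averaged 4.85 in Tak1/Casp8 livers and 4.91 in Tak1/Rip3 livers, below the lower quartile of the probe sets on every array (6.47 to 6.52).

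Genes around these kinases passed at a share not far from that of all genes. Of 92 measured genes in 7 lists 9 passed (9.78%, against 6.69% of all genes), 5 higher and 4 lower in Tak1/Casp8 livers. Over the 92 genes the median size of the difference was 0.137, against 0.141 over all genes. The calls below are therefore given gene by gene and not as a result about the lists. Of 15 adaptor and ubiquitin genes upstream of TAK1, the ubiquitin ligase Birc3 rose and the TNF receptor adaptor Traf5 fell. Birc3 measured 9.43, 9.30, 9.63 and 9.30 in Tak1/Casp8 livers, against 8.82, 8.55, 8.97 and 8.90 in Tak1/Rip3 livers, and the groups were clear of each other (1.52-fold higher, limma adjusted p = 0.0144). Traf5 averaged 7.42 ± 0.12 in Tak1/Casp8 livers and 7.88 ± 0.14 in Tak1/Rip3 livers (limma adjusted p = 0.0261). Myd88, the Toll-like receptor adaptor, differed by 0.34 (limma adjusted p = 0.0774).

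Of 14 deubiquitinases and other brakes on TAK1 and IKK, 2 rose and 1 fell. The phosphatase Ppm1b measured 9.33, 9.29, 9.24 and 9.19 in Tak1/Casp8 livers, against 8.76, 8.67, 8.81 and 8.48 in Tak1/Rip3 livers. The groups did not overlap, and its adjusted p was the lowest among the list genes (0.58 ± 0.10 SE, limma adjusted p = 0.00756). Tnfaip3, which encodes the ubiquitin-editing enzyme A20, averaged 8.86 ± 0.19 in Tak1/Casp8 livers and 8.30 ± 0.26 in Tak1/Rip3 livers (limma adjusted p = 0.0461). Usp18, an interferon-induced ISG15 protease, averaged 9.09 ± 0.27 in Tak1/Casp8 livers and 9.68 ± 0.20 in Tak1/Rip3 livers (limma adjusted p = 0.0455). Its groups overlapped, with 9.44 in Tak1/Casp8 replicate 4 and 9.40 in Tak1/Rip3 replicate 2.

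Of 11 NF-κB subunits and IκB proteins, 10 had a higher mean in Tak1/Casp8 livers, with a median difference of 0.29, and 1 passed. The call was the atypical IκB protein Nfkbiz, 1.43-fold higher (0.52 ± 0.13 SE, limma adjusted p = 0.0427). The inhibitor Nfkbia differed by 0.29 (limma adjusted p = 0.0751) and the subunit Nfkb2 by 0.35 (limma adjusted p = 0.142). The next list held 13 genes, for MAP kinase kinases, MAP kinases and the MAP kinase-activated kinases Mapkapk2 and Mapkapk3. In it Map2k3, which activates p38, was 1.32-fold lower (limma adjusted p = 0.0459). Map2k7 differed by 0.19 and Mapk8, which encodes JNK1, by 0.30. Of 16 other MAP3 kinases Map3k1 was 1.53-fold higher, with 9.85 ± 0.20 in Tak1/Casp8 livers and 9.24 ± 0.17 in Tak1/Rip3 livers (limma adjusted p = 0.0171). Map3k6 and Map3k15 differed by 0.36 and 0.40 (limma adjusted p = 0.0579 and 0.111).

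Of 12 adaptors and substrates of TBK1 and IKKε limma called 0, with 0 at an unadjusted p under 0.05, against 21.1% of all genes. With variances unmoderated and separate for each genotype 0 passed too, but only 115 of all 19560 genes did. The autophagy receptor Optn differed by -0.30, Tbkbp1 by 0.18 and Sting1 by -0.20. The list around NLK held 11 genes, for partners and substrates of NLK and for the receptor gene Tgfbr1. In it the Wnt transcription factor Tcf7 was 1.42-fold lower (-0.50 ± 0.12 SE, limma adjusted p = 0.0337). Tgfbr1 differed by -0.48 and Foxo4 by 0.40 (limma adjusted p = 0.0590 and 0.105). Of the 9 calls, Birc3 and Ppm1b held without any 1 array and Map3k1 was lost without Tak1/Rip3 replicate 1 (limma adjusted p = 0.0534). Map2k3 was lost without each of the 8 arrays (0.0606 to 0.104) and Nfkbiz without all but Tak1/Casp8 replicate 4 (0.0559 to 0.116). Traf5 was lost without any array but Tak1/Casp8 replicate 2 or Tak1/Rip3 replicate 4 (0.0503 to 0.0820). Usp18 was lost without any but Tak1/Casp8 replicate 4 or Tak1/Rip3 replicate 2 (0.0878 to 0.131), and Tnfaip3 without any but Tak1/Casp8 replicate 3 or Tak1/Rip3 replicate 4 (0.0786 to 0.111). Tcf7 was lost without any but Tak1/Casp8 replicate 2 or 4 (0.0643 to 0.0901). With the brightest probe set alone Birc3 and Ppm1b did not pass (limma adjusted p = 0.136 and 0.167). Traf5 differed by 0.10 there and Map2k3 by -0.025, and neither passed. Map3k1, Tnfaip3 and Nfkbiz also lost their calls in that setting (limma adjusted p = 0.0723, 0.128 and 0.113). Only Usp18 and Tcf7 of the 9 held in it. With variances unmoderated and separate for each genotype 0 of the 9 passed.

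**Figure D5:**
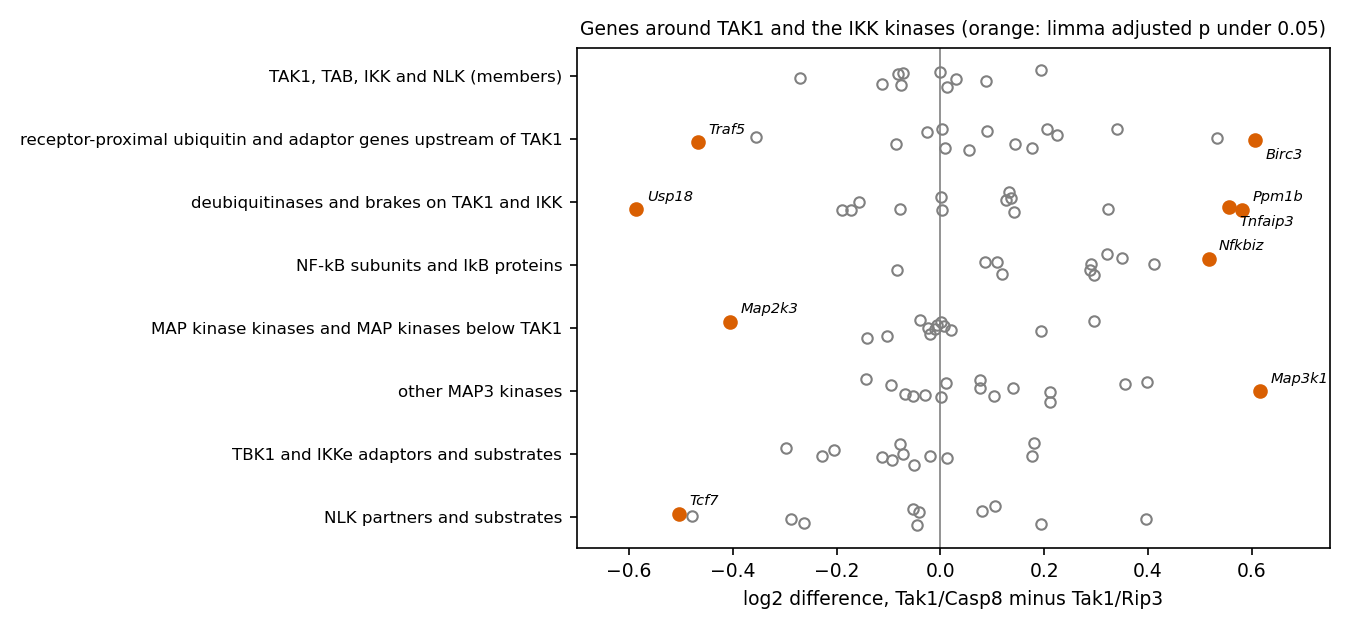
Log2 differences (x axis, Tak1/Casp8 minus Tak1/Rip3) of the 10 members (top) and of the 92 measured genes of 7 lists around them, 1 point per gene. Orange points passed (9 of 92, or 9.78%, against 6.69% of all genes), and no member did.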

How the data were processed

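Total RNA from snap-frozen liver of 8 mice was labelled and hybridised to 1 array each, per the labels' protocols. As deposited, each value is a log2 intensity. RMA is the one tool in the submitters' processing notes, without a version. It subtracts background, aligns the arrays and summarises each probe set, which compresses small differences near the background. The genotype label set the groups, and replicate numbers only name arrays.

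Of 223771 probe sets, 206316 carried exactly 1 symbol, 3734 carried several and 13721 none, per the platform annotation. Old symbols were updated through a RefSeq gene table (2571 symbols), except where the current symbol was itself annotated, and 19456 of 19560 matched it. A gene value is the median over its probe sets. No filter on dim features was set. Genes and probe sets were each fitted over all 8 arrays in limma 3.58.1 under R 4.3.3 (lmFit and eBayes, two-sided, no covariate), with Benjamini-Hochberg adjustment over all genes or all probe sets and calls under 0.05. The fit was tested on simulated data. Promoter windows came from RefSeq (GRCm38.p6). Figures used matplotlib 3.10.9 under Python 3.11.15.

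The members and lists were chosen with earlier results of these data known. The text names the 10 members, Casp8 and Ripk3, the 3 genes with the lowest adjusted p in each list, and the 3 genes most like Map3k7 among those with 3 or more probe sets. Irak4, Map3k21 and Tcf7l1 were listed but not analysed here. Markers passed in these counts, against 6.69% of all genes: hepatocyte 0 of 7, bile duct 1 of 6, macrophage 0 of 8, endothelium 0 of 7, stellate cell 2 of 7, T and NK cell 0 of 8, B and plasma cell 3 of 5, neutrophil 1 of 5 and dividing cell 6 of 6. In Tak1/Casp8 livers the bile duct and neutrophil calls were higher and the stellate and dividing cell calls lower. Of the B and plasma cell calls 1 was higher and 2 lower. All 7 stellate cell markers had a lower mean there, and 4 of 6 bile duct markers did. Whether the mix of cells differed was not tested. Alternatives were other scalings between arrays, other probe set summaries, a filter at the 30th percentile, other variance models including a Welch test (variances unmoderated and separate for each genotype), a threshold of 0.10 and omission of arrays.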

Additional observations from a re-analysis of the deposited data

Results flagged for a closer look

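In 7 cases 1 array lay apart from the other 3 of its genotype by more than Dixon's test allows at the 95% level for 4 samples. The 78 groups tested were those of the member gene values, of all Map3k7 probe sets and of other member probe sets picked by rule. That rule took an unadjusted p under 0.05 in limma, groups without overlap, or an SD above 1 in a genotype. The Ikbkb and Ikbke probe sets below entered only through their SD. They were thus picked for their spread, and the count cannot be set against the 5% that chance alone would flag. The gene value of Tab1 was 8.16 in Tak1/Casp8 replicate 3, with 7.65 to 7.73 in the other mice of that genotype. Probe set 6 of Tab3 read 7.81 in Tak1/Casp8 replicate 4, with 7.32 to 7.37 in the others.

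The other cases were low readings. On Tak1/Casp8 replicate 4, probe sets 10, 14 and 19 of Ikbkb read 6.48, 6.69 and 6.71, and probe set 1 of Ikbke read 7.08. The other arrays of the genotype read at least 8.63, 9.13, 9.84 and 10.34 there. Probe set 1 of Ikbkb read 5.29 in Tak1/Rip3 replicate 2, with 7.35 to 7.62 in the others. Over all 154 member probe sets and both genotypes, 19 of 308 groups had such a reading (6.17%), 8 of them on Tak1/Casp8 replicate 4 and 7 on Tak1/Rip3 replicate 2. These arrays also had the lowest mean correlation with their own genotype, 0.985 and 0.987. The cause was not tested.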

How the results depend on the processing

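No paired analysis was possible because nothing in the labels pairs a Tak1/Casp8 mouse with a Tak1/Rip3 mouse, and replicate numbers are names given in accession order. The 10 members had 0 calls under every alternative except the mean over the probe sets, which called 1 (Tab1). Map3k7 had 0 calls among its probe sets under each. Of 190 member values under alternatives, 163 kept their direction and side of the threshold, 1 gained a call and 26 changed sign. With the brightest probe set the differences were 0.088 for Map3k7, 0.071 for Tab1, 0.087 for Tab2, -0.0094 for Chuk, 0.13 for Ikbkb, 0.11 for Ikbkg and -0.14 for Nlk, and also -0.036 for Ripk3, 0.10 for Traf5, -0.072 for Map2k7, -0.10 for Foxo4 and 6.75e-05 for Sting1. With the mean they were 0.094 for Map3k7, 0.032 for Tab2, -0.0090 for Tbk1 and -0.14 for Nlk. With arrays shifted to 1 median Tab2 differed by 0.039 and Map3k7 probe set 7 by 0.017, and the median of all genes moved by 0.04. Of the named list genes, Usp18, Map2k3 and Tcf7 lost their calls under this shift and under quantile normalisation (limma adjusted p = 0.0514 to 0.0789). Map3k6 passed under both, and Myd88 under the shift (limma adjusted p = 0.0454). With the mean Traf5, Tnfaip3 and Map2k3 lost theirs (limma adjusted p = 0.0891, 0.0723 and 0.175), while Myd88 and Nfkbia passed. Without both of the least correlated arrays Chuk differed by -0.049, Ikbkb by 0.010, and Map3k7 probe sets 4 and 8 by -0.030 and -0.070. With 1 array left out Map3k7 differed by -0.14 to -0.037, Tab1 by -0.39 to -0.19, Tab2 by -0.070 to 0.056, Ikbkb by -0.17 to 0.0019, Tbk1 by -0.027 to 0.091 and Nlk by -0.071 to 0.092. Map3k7 probe sets 6 and 7 differed by -0.021 to 0.094 and by -0.073 to 0.044 there.

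Calls among the other 143 member probe sets, 1 in all, numbered 3 with array weights, 2 at a threshold of 0.10, 0 with the Welch test, 0 without both of the least correlated arrays and 0 to 2 with 1 array left out. Calls among the 92 list genes, 9 in all, numbered 3 with the brightest probe set, 0 with the Welch test and 2 to 7 with 1 array left out. The 3 were Usp18, Tcf7 and Myd88, and Myd88 was not among the 9. Calls over all genes (1308) became 759 with the brightest probe set, 115 with the Welch test, 2130 at 0.10 and 706 to 1347 with 1 array left out. Calls over all probe sets (3651) became 5923 with trend and robust settings, 8114 with array weights, 118 with the Welch test, 8155 at 0.10 and 1004 to 3919 with 1 array left out. Signal near background and 4 arrays a genotype limit the rest.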
